A study of Mus musculus with 2 samples.

Results

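H3K9me3, the trimethylated form of lysine 9 on histone H3, was located at germ cell and meiosis genes of E14TG2a.4, a line of mouse embryonic stem cells. The set was the 10 genes Dazl, Ddx4, Mael, Asz1, Tdrd1, Piwil2, Sycp1, Sycp3, Tex101 and Stk31, listed by name, with earlier results of these data known, out of 22367 protein-coding genes of GENCODE M1 in mm9 and 21887 of RefSeq in mm10. Each gene was taken with 20 kb on either side. The line is male and of strain 129/Ola, and the series holds 1 group of 2 biological replicates with separate biosamples and no second condition. Control libraries were not used here. The data were the authors' peak lists, so read depth is unknown and no test between groups could be made. In mm10 the lists hold narrow peaks, with 161565 in replicate 1, 198948 in replicate 2 and 123489 in the authors' replicated list. In mm9 they hold wide regions, 43006 and 53405, and the bases covered in both replicates are called shared regions. The peak lists carry no expression, so neither the silence of these genes nor the identity of the cells could be read from them. Of the pluripotency genes listed, 0 of 9 had a shared region at a start in mm9 and 1 of 8 (Esrrb) had a replicated peak at a start in mm10. Of the fibroblast genes that feeder cells would express, 2 of 8 had one in mm9 and 1 of 4 in mm10. Over all protein-coding genes the shares were 5.54% in mm9 and 5.89% in mm10. Lists of this size are too short to be read against them. The same limit of size holds for the 10 genes and each germ cell list below, whose shares are given as a description.

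Many germ cell genes act in the gonad and are known to be shut in stem cells and in the body's other tissues. DNA methylation of CpG-rich promoters, a Polycomb complex with the DNA-binding factors E2F6, MGA and MAX, and H3K9 methyltransferases are all known to take part in keeping such genes off. H3K9me3 is best known at repeats, where it forms wide blocks.

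Of the 9 genes with a RefSeq start in mm10, 6 had a replicated peak within 1 kb of it, which is 66.7%. These were Dazl, Ddx4, Mael, Sycp1, Sycp3 and Tex101. Over all 17492 protein-coding genes with a RefSeq start the share was 5.89%. The start-site rule in mm10 was set after the data had been seen. Asz1, Tdrd1 and Stk31 had no replicated peak there, and Piwil2 had no start in the table and no peak over its body in any of the 4 mm10 lists. The wide mm9 lists gave another picture: a shared region lay within 1 kb of a transcript start in 1 of the 10 genes, or 10.0%, against 5.54% of all protein-coding genes. That gene was Sycp1, and the start was an internal one, so at the 5′ ends the count was 0 of 10, against 3.84%. Without replicate 1, the wide regions of replicate 2 came within 1 kb of a start of 3 genes, Dazl, Ddx4 and Sycp1, against 7.83% of all protein-coding genes. Replicate 1 alone did so at 1 gene, at the internal start of Sycp1, against 6.33%. The pooled list did so at 4, the same 3 genes and Mael, against 8.47%.

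The promoter sequences below are the 250 bases before the RefSeq start, in the direction of the gene, from mm10 (RefSeq, GRCm38.p6). They are shown because they let the marked and unmarked starts be compared letter by letter. Capitals mark CACGTG, the E-box to which MAX and MGA are known to bind, and TCCCGC or its reverse complement GCGGGA, the core of the E2F site. Both strands were searched, and no match of one overlapped the other. The first 3 windows lie wholly inside a replicated peak, and Dazl has 164 of its 250 bases inside one. The Ddx4 peak lies wholly upstream of the window and covers 0 of its bases, and Tdrd1 has no peak there.
Sycp1, chr3:102936101-102936350, minus strand: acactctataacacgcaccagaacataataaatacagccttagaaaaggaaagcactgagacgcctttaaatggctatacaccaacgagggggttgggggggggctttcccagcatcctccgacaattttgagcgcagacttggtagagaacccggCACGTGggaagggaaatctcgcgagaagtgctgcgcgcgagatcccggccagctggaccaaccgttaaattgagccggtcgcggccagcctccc
Sycp3, chr10:88459337-88459586, plus strand: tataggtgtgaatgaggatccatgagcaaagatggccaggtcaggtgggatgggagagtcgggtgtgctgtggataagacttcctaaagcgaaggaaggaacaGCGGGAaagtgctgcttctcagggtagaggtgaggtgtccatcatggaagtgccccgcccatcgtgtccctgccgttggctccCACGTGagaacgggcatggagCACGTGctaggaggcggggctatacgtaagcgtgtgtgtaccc
Tex101, chr7:24672051-24672300, minus strand: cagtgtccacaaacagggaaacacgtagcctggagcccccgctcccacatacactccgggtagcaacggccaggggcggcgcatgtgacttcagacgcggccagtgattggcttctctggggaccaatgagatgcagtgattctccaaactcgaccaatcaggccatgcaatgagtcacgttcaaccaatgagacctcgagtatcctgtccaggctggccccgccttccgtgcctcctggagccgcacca
Dazl, chr17:50293621-50293870, minus strand: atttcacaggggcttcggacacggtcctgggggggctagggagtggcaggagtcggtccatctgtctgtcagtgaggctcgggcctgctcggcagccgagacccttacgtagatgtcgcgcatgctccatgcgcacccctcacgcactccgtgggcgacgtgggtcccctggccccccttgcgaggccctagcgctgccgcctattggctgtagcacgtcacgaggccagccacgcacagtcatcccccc
Ddx4, chr13:112652311-112652560, minus strand: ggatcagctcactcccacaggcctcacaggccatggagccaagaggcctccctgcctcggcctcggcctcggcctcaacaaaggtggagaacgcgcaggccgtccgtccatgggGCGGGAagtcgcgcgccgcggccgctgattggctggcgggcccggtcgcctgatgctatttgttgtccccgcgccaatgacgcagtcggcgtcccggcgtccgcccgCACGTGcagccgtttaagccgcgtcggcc
Tdrd1, chr19:56825959-56826208, plus strand: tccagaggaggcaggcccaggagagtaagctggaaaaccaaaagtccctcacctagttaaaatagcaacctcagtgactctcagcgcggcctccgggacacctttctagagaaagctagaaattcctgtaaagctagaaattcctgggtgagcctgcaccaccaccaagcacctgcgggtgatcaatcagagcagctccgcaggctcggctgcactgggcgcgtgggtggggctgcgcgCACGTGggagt

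CACGTG stood in at least 1 of the 250-base windows of 6 of the 9 genes, or 66.7%, and of 7.61% of 17492 protein-coding genes. Counted per window it stood in 6.63% of 21263. Sycp3 held it at 64 and at 43 bases before the start, Sycp1 at 94, Ddx4 at 29 and Mael at 223. It was not limited to marked starts, since Tdrd1 held it at 11 bases before its first start and Stk31 at 55, and neither had a peak there. Of the 6 genes with a replicated peak at the start, 4 held it, and Dazl and Tex101 did not. At Sycp1 and Sycp3 the window lay wholly inside the replicated peak. At Ddx4 and Mael that peak covered 0 of the 250 bases, so CACGTG lay outside it. TCCCGC stood in Ddx4, Mael and Sycp3, at 136, 143 and 147 bases before the start, which is 3 of 9 genes or 33.3%, against 24.2% of all genes and 21.8% of all windows. Each of these 3 genes held both motifs in 1 window, against 2.28% of all genes and 1.95% of all windows. A match describes the letters of the window and is not evidence of binding. All 12 windows of the 9 genes, with the first bases after the start, were found once, letter for letter, in mm9. Only the gene's own chromosome was searched, in the orientation of the gene.

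CpG counts at the 5′ end ran from 11 in 250 bases at Tdrd1 to 31 at Ddx4, and the median of all protein-coding windows was 10.0. Among the genes with a start peak, Dazl had 20 CpG, Mael 18, Sycp1 17, Tex101 14 and Sycp3 12. Asz1 and Stk31, without a replicated peak at the start, had 15 and 21, so the CpG counts of marked and unmarked starts overlapped.

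Dazl and Ddx4, the RNA-binding genes, both carried a peak just upstream of the start. Dazl, an RNA-binding protein needed for germ cells to develop, lies on chromosome 17 from 50279393 to 50293620 in mm10 on the minus strand. Its strongest peak within 1 kb of the start had a fold enrichment of 3.38 in replicate 1 and 6.56 in replicate 2, or 4.97 ± 2.25 (SD, n = 2). Fold enrichment is the authors' own linear value for a peak, and the reference it was taken against is not stated in the labels or the files. The replicated list had 2 short peaks there, of 334 and 457 bp, with summits 755 and 408 bp upstream. Replicate 2 had the higher value and a single peak of 884 bp in their place. In mm9 replicate 2 had a region 1400 bp wide, 0.077 kb upstream of the start, at a fold enrichment of 4.37, while the nearest region of replicate 1 lay 4.68 kb away.

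Ddx4, the mouse Vasa, an RNA helicase of germ granules, lies on chromosome 13 from 112598333 to 112652633 in mm10. Its start-site peak had a fold enrichment of 5.2 in replicate 1 and 6.0 in replicate 2, or 5.60 ± 0.566 (SD, n = 2). The replicates had a smaller SD here than at Dazl. The replicated peak was 871 bp wide, with its summit 541 bp upstream of the RefSeq start, and it was the only replicated peak in the gene and its flanks. In RefSeq the gene body begins 323 bp upstream of that start, and the peak lies wholly upstream of the body. In mm9 replicate 2 had a region of 1000 bp there at 3.51 and the nearest of replicate 1 lay 42.9 kb away.

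**Figure D1:**
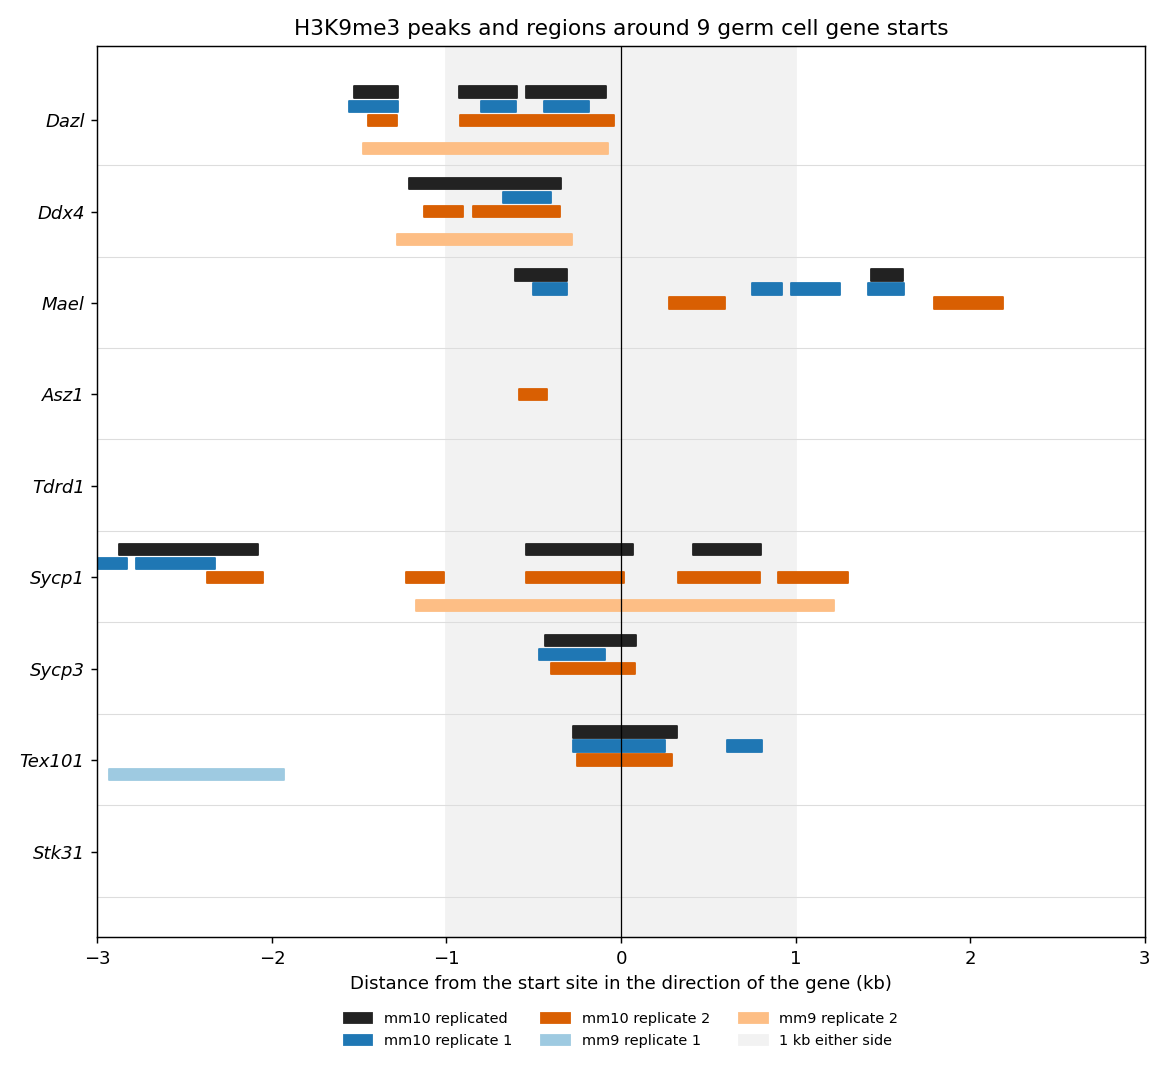
Horizontal bars show peaks (mm10) and wide regions (mm9) of each list within 3 kb of the start of the 9 genes with a RefSeq start, with distance in kb in the direction of the gene on the x axis, from the RefSeq start in mm10 and the GENCODE 5′ end in mm9, and the genes on the y axis. Replicated mm10 peaks (black) lie within 1 kb of the starts of 6 genes. Wide mm9 regions lie within 1 kb of the 5′ ends of Dazl, Ddx4 and Sycp1 in replicate 2 and of no 5′ end in replicate 1.

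Sycp1 and Sycp3, the genes of the synaptonemal complex that zips paired chromosomes together in meiosis, both had the mark at the start, but only Sycp3 in both replicates. Sycp3, a protein of the axial and lateral elements, lies on chromosome 10 from 88459587 to 88473236 in mm10. Its start-site peak had a fold enrichment of 3.38 in replicate 1 and 7.38 in replicate 2, or 5.38 ± 2.83 (SD, n = 2). The replicated peak was 520 bp wide with its summit 104 bp upstream, and no other replicated peak lay in the 13.7 kb body or its flanks. In mm9 the nearest region of either replicate lay 55.7 kb from the start, so the short mm10 peak had no wide counterpart.

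Sycp1, the transverse filament protein, lies on chromosome 3 from 102818499 to 102936100 in mm10. Replicate 2 listed 3 peaks within 1 kb of its start, the strongest at 6.56, and replicate 1 listed none there. In mm9 replicate 2 likewise had a region of 2400 bp across the start, at 3.55, and the nearest of replicate 1 lay 5.22 kb away. The replicated list nevertheless held 2 peaks, 610 and 390 bp wide, at 4.75 and 3.90, so membership of that list did not require a peak in each replicate. Within the gene the strongest replicated peak of all 10 genes lay 7268 bp downstream of the start, with a fold enrichment of 16.7 and a −log10 q of 95.2. There the values were 12.1 in replicate 1 and 16.9 in replicate 2. The shared mm9 region at that distance from the start was 3600 bp wide and had 3.47 ± 0.385 (SD, n = 2), with 74 exonic bases.

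The shared mm9 region that counted at a transcript start of Sycp1 lay far inside the gene. It ran from 102637201 to 102639400 on chromosome 3, over the internal start at 102637717, with fold enrichments of 2.28 in replicate 1 and 2.41 in replicate 2. Of its bases, 98.6% began a 16-mer present at least 50 times in the mm9 genome, the highest such share of any region at these genes, and 30 bases were exonic.

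The piRNA pathway silences transposons in germ cells. Of its 4 genes in the set, Mael, Asz1, Tdrd1 and Piwil2, Mael had a replicated peak at its start, Asz1 and Tdrd1 had none, and Piwil2 had no start in the table. Mael, Maelstrom, acts in that pathway and lies on chromosome 1 from 166201385 to 166238744 in mm10. Its replicated start-site peak was 297 bp wide at a fold enrichment of 3.15, with its summit 357 bp upstream, and was overlapped by a peak of replicate 1 (2.86) but by none of replicate 2. Replicate 2 had its only peak within 1 kb of the start 377 bp inside the gene, at 3.28. Replicate 1 had further peaks inside the gene, but none overlapping that of replicate 2, so no site near the Mael start was called in both replicates. Asz1, a protein of germ granules at mitochondria, had a single peak of 165 bp near its start, at 3.01 in replicate 2, with none in replicate 1, the pooled list or the replicated list. Tdrd1, a Tudor domain partner of the PIWI proteins, had none within 1 kb in any list. Piwil2, the PIWI protein Mili, had 1 replicated peak, 19029 bp upstream of its RefSeq body, at 2.47 in replicate 1 and 3.83 in replicate 2. Its RefSeq body is 64.4 kb long and its GENCODE body 56.6 kb, so the annotations differ in its extent.

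Tex101 and Stk31 differed in where the mark lay. Tex101, a germ cell surface protein needed for sperm to pass the oviduct, is a gene of 4.04 kb on chromosome 7 from 24668012 to 24672050 in mm10. Its start-site peak straddled the start, with a fold enrichment of 3.90 in replicate 1 and 4.92 in replicate 2, or 4.41 ± 0.721 (SD, n = 2), and a replicated width of 594 bp. In mm9 replicate 1 had a region 1.93 kb upstream and the nearest of replicate 2 lay 13.3 kb away. Stk31, a protein with Tudor and kinase domains, had no peak within 1 kb of a start in any list, and its mark lay inside the gene and downstream of it.

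**Figure D2:**
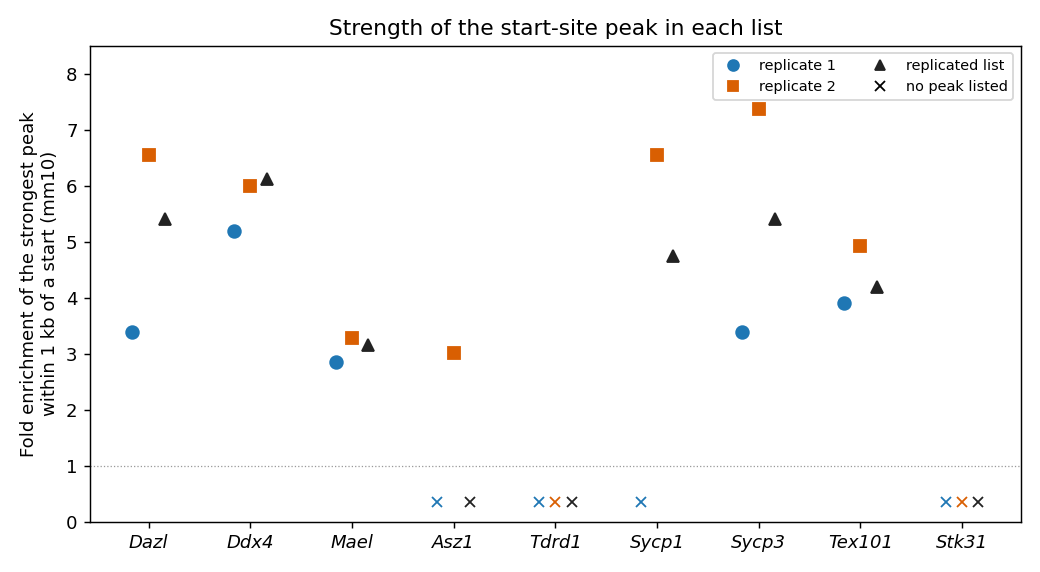
Fold enrichment (linear, y axis) of the strongest mm10 peak within 1 kb of a start is plotted for each of the 9 genes with a RefSeq start, for replicate 1, replicate 2 and the replicated list, and crosses near the bottom stand for no listed peak and not for a value. Replicate 2 lies above replicate 1 at all 5 genes with a value in both, from 2.86 against 3.28 at Mael to 3.38 against 7.38 at Sycp3. Over all peaks of the mm10 lists the median was also higher in replicate 2, at 3.83 against 3.38. At Mael the values of the replicates come from separate peaks that do not overlap.

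The start-site peaks were short, and their median strength lay near that of other marked starts. Replicated values at the 6 genes ran from 3.15 to 6.13, and the median was 5.08. Over the 1031 protein-coding genes with such a peak the median was 4.50, with quartiles of 3.38 and 7.05. Widths ran from 297 to 871 bp with a median of 557 bp, against 705 bp over the 1031 genes. In both replicates separately, 5 genes had a peak within 1 kb of a start, though at Mael not at the same site. The share of all protein-coding genes with a start peak in both replicates was not counted, so this count has no background beside it. Replicate 1 alone gave 5 genes, against 6.53% of all protein-coding genes, and replicate 2 alone gave 7, Asz1 among them, against 8.27%. The pooled list gave 6, against 8.94%.

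Most short start peaks in the genome also lacked a wide shared region. Of 832 protein-coding genes with a replicated mm10 peak at the start and a symbol present in both annotations, 37.9% had a shared mm9 region at the 5′ end and 44.0% at any transcript start. Among the 6 germ cell genes the counts were 0 and 1. No coordinates were converted between the builds, and the genes were matched by symbol.

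Over the whole body, start included, 7 of 10 genes had a replicated mm10 peak, or 70.0%, against 30.8% of protein-coding genes. At Sycp3 and Tex101 the only such peak was the one at the start, already counted above. The bodies were also longer, with a median of 49.1 kb against 17.2 kb, and the part of length in that count was not tested. With 20 kb on each side, all 10 genes had a replicated peak, against 65.9%. In mm9, 6 of 10 had a shared region in the same window, a share to be read against 51.6% of all protein-coding genes. The 10 windows held 59 replicated peaks, of which 46 met a peak in each replicate, 11 met one in replicate 2 alone and 2 in replicate 1 alone. Fold enrichment was higher in replicate 2 than in replicate 1 at 37 of those 46. The whole mm10 lists differed the same way, with a median fold enrichment of 3.83 in replicate 2 and 3.38 in replicate 1. The matching count over all replicated peaks was not made. None of the 59 overlapped another protein-coding gene of RefSeq.

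**Figure D3:**
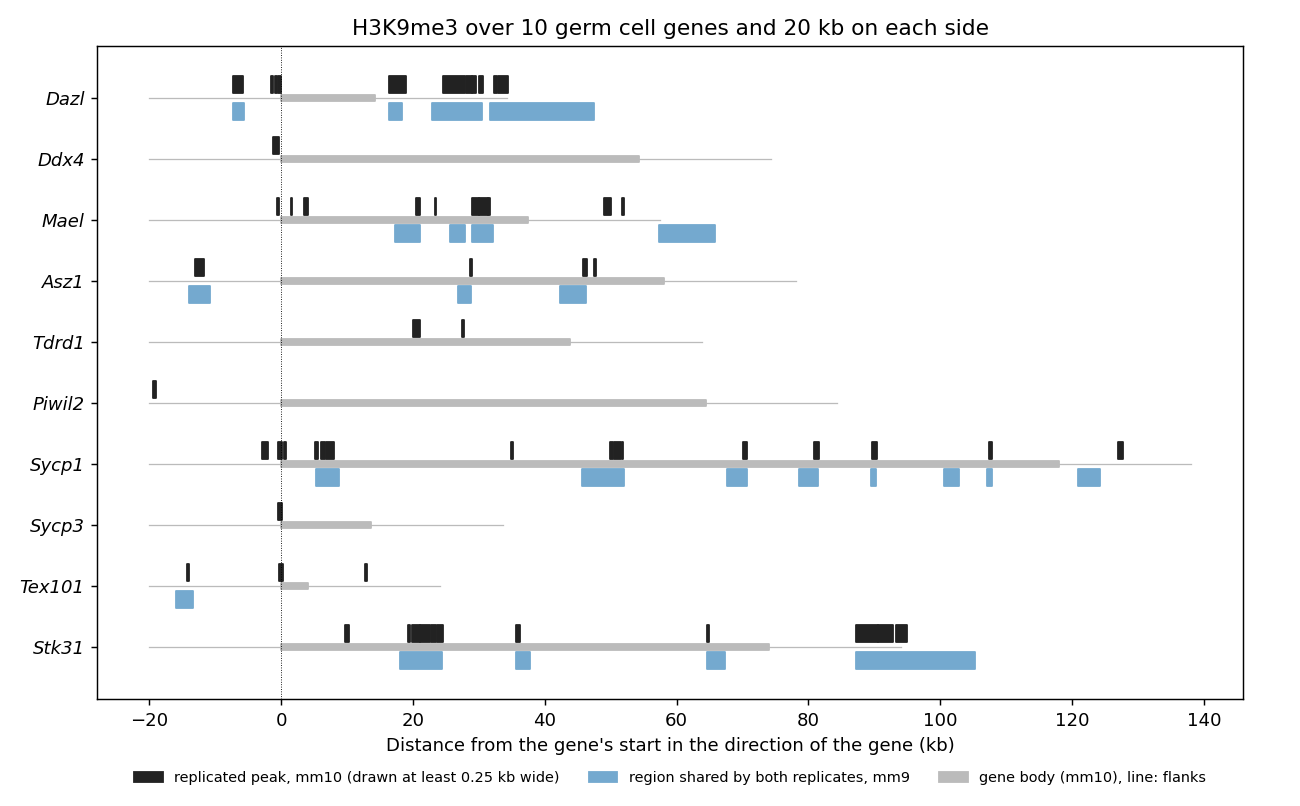
For each of the 10 genes the grey bar is the mm10 body and the line its 20 kb flanks, with distance from the start in kb on the x axis. Black blocks are replicated mm10 peaks and blue blocks are shared mm9 regions, both drawn where they overlap the window, and they cluster at Sycp1, Stk31, Dazl and Mael while Ddx4, Sycp3 and Piwil2 have 1 replicated peak each.

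The covered share of the body separated the genes. Mael had 11.1% of its body under replicated peaks, with 8.31% in replicate 1 and 11.3% in replicate 2. Stk31 had 8.13%, with 4.97% and 7.86%, and Tex101 7.92%, with 11.3% and 7.20%. In the replicated list and in replicate 2 the start-site peak was the only one over the 4.04 kb body of Tex101, while replicate 1 had 2 peaks there. Sycp1 had 5.79%, with 3.68% and 7.16%, Tdrd1 3.33%, with 2.57% and 3.23%, and Asz1 1.90%, with 1.92% and 2.64%. Sycp3 had 0.64% and was covered in replicate 2 only. Dazl, Ddx4 and Piwil2 had 0% in both replicates and in the replicated list. The pooled list gave Ddx4 0.4%, from 1 peak of 217 bp at a fold enrichment of 2.53, and gave Dazl and Piwil2 0%. The median over the 10 genes was 2.61%, and over all protein-coding genes it was 0%, with 69.2% of them at 0. The 10 bodies had a median length of 49.1 kb against 17.2 kb over all protein-coding genes, and the part of length in this contrast was not tested.

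**Figure D4:**
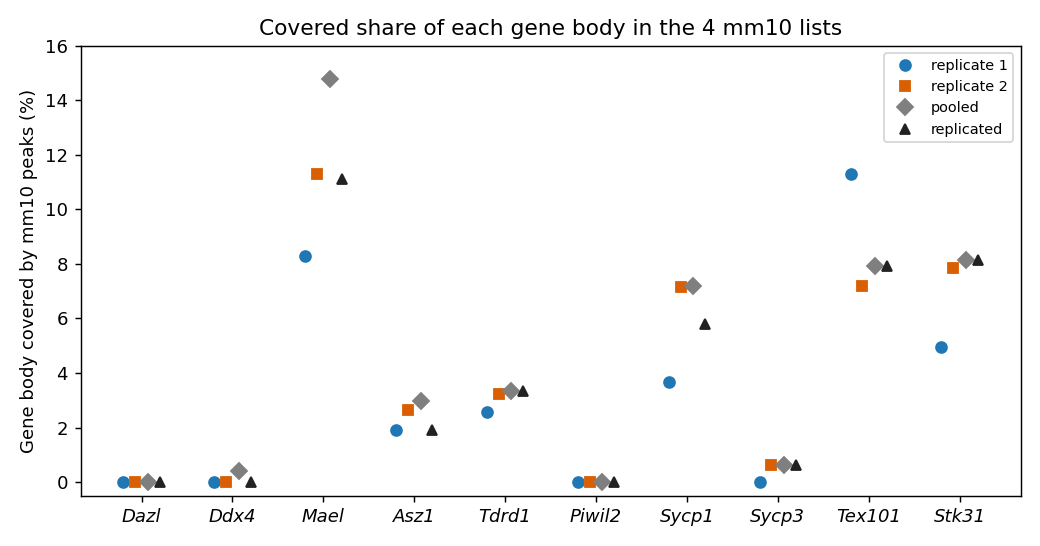
The share of each gene body covered by mm10 peaks (%, y axis) is plotted for replicate 1, replicate 2, the pooled list and the replicated list. Mael, Tex101, Stk31 and Sycp1 lie between 3.68% and 14.8% in all 4 lists, Dazl and Piwil2 lie at 0% in all 4, and Tex101 is the gene where replicate 1 is clearly above replicate 2.

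Stk31 held a run of strong replicated peaks inside the gene. On chromosome 6 in mm10, where Stk31 runs from 49395506 to 49469506, replicated peaks of 1199 and 1509 bp lay 20.6 and 21.9 kb downstream of the first start. The larger had a fold enrichment of 7.21 in replicate 1, 20.6 in replicate 2 and 14.5 in the replicated list. In mm9 a single shared region lay at that distance from the start, 6400 bp wide, from 49363601 to 49370000 on chromosome 6, at 3.35 in replicate 1 and 4.87 in replicate 2. It held 534 exonic bases, the most of any shared region at these genes, and 25.1% of its bases began a high-copy 16-mer. A wider region of 18000 bp followed downstream of the gene, at 3.51 in replicate 1 and 5.0 in replicate 2.

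Dazl was flanked and not filled. Its strongest replicated peak, 3326 bp wide at 12.9, lay 25649 bp downstream of the start, past the end of the 14.2 kb body, with 8.58 in replicate 1 and 15 in replicate 2. In mm9 the same side held shared regions of 7600 and 15800 bp, at 3.44 ± 0.468 and 5.88 ± 1.25 (SD, n = 2). On the upstream side a peak of 1581 bp lay 6456 bp before the start, with 4.94 in replicate 1 and 6.17 in replicate 2.

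The strongest peaks in the bodies of Mael, Asz1 and Tdrd1 lay well away from their starts. In Mael the strongest replicated peak lay 30.5 kb from the start at 7.60, with 5.46 in replicate 1 and 9.16 in replicate 2. In Asz1 it lay 46.0 kb from the start at 8.25, with 5.98 and 9.57. In Tdrd1 it lay 20.4 kb from the start, at 4.83 in replicate 1 and 4.52 in replicate 2, so replicate 1 was the higher there.

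Shared mm9 regions at these genes lay in gene bodies and flanks and held more high-copy sequence than the genome does on average. There were 24 such regions at 6 genes, from 800 to 18000 bp wide, 15 overlapping a body, 3 upstream and 6 downstream. Of the 15, 12 held no exonic base, and the matching share over all shared regions was not counted. Over all 24, 44.7% of bases began a 16-mer present at least 50 times, against 51.4% over all shared regions and 18.7% over the genome. Per region the order was the other way, with a median of 63.9% at these genes and 52.0% over all shared regions, and 19 of the 24 were above the genome's share. The median over all shared regions was itself above the genome's 18.7%, and how many of them exceed it was not counted. Within 1 kb of the 10 starts the high-copy share ran from 2.20% at Dazl to 15.8% at Stk31, and the median over protein-coding starts was 4.05%. CpG density within 1 kb of the start ran from 22.0 per kb at Tex101 to 70.5 per kb at Dazl, and was 10.3 per kb over the 24 regions.

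Other germ cell genes were counted from lists of the piRNA pathway, meiotic chromosomes and germ cell development. Whether the genes of these lists are silent in this line could not be read from the peak lists. By the mm10 start rule 13 of 37 had a replicated peak, or 35.1%, against 5.89% of all protein-coding genes. By the mm9 rule 7 of 45 had a shared region, or 15.6%, against 5.54%. In the piRNA list the counts were 5 of 12 in mm10, or 41.7%, and 4 of 14 in mm9, or 28.6%. The mm9 values were 3.35 ± 0.44 at Tdrd7, 3.25 ± 0.78 at Tdrkh, a Tudor protein, 3.07 ± 0.40 at Fkbp6 and 1.87 ± 0.39 at Mov10l1, an RNA helicase (SD, n = 2). In mm10 Henmt1, which methylates piRNA ends, had 7.87 in replicate 1 and 20.8 in replicate 2, the strongest start of these lists, a gene named after its value was seen. The meiotic list had 4 of 17 in mm10, or 23.5%, and 2 of 19 in mm9, or 10.5%, the latter against 5.54% of all protein-coding genes. Those 2 were Syce3 at 3.25 ± 0.73 and Syce1 at 2.52 ± 0.67, both of the central element of the synaptonemal complex. In mm10 Sycp2, the partner of Sycp3, had 2.6 in replicate 1 and 3.83 in replicate 2, and Tex12, of the central element, had 4.39 and 5.2, both also named after their values were seen.

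The germ cell development list had 4 of 8 in mm10, or 50%, against 5.89% of all protein-coding genes. These were Boll, Ddx25, Dnmt3l and Tex19.1, named after their values were seen. In mm9 it had 1 of 12, or 8.33%, which is near the 5.54% of all protein-coding genes. That 1 was Dppa3, at 6.14 ± 1.58 (SD, n = 2). Boll, a relative of Dazl, had a start peak in replicate 1 alone, at 3.12, and Ddx25, a relative of Ddx4, in replicate 2 alone, at 3.47. Of 15 genes for repressors that include E2f6 and Mga, 0 had a shared mm9 region at a start, against the same 5.54%, and 2 had a replicated mm10 peak, or 13.3%, against 5.89%. These 2 were E2f6, at 3.30 in replicate 1 and 4.65 in replicate 2, and Dnmt3a, a DNA methyltransferase, at 2.39 in replicate 2 alone. The start table held no entry for Tdrd6, Rnf17, Pnldc1, Spo11, Tex11, Meiob, Dnd1, Tex15, Dppa3 and Prdm14.

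**Figure D5:**
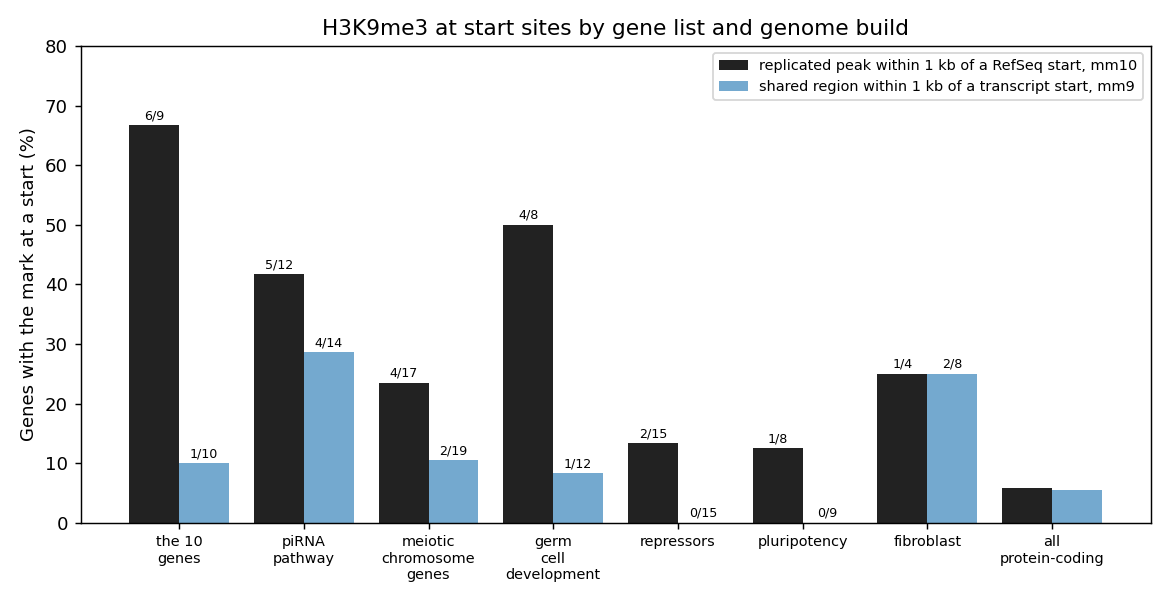
Bars give the share of genes (%, y axis from 0) with the mark within 1 kb of a start, for the 10 genes, 6 further lists and all protein-coding genes, with counts above the bars of each list. Black bars are replicated mm10 peaks at RefSeq starts and blue bars are shared mm9 regions at GENCODE transcript starts, and the black bar of the 10 genes stands at 66.7% against 5.89% for all protein-coding genes.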

How the data were processed

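H3K9me3 ChIP-seq of 2 replicates was available as peak lists. The fold enrichment (a linear ratio) of each peak was deposited by the authors, as were −log10 p and −log10 q in mm10 and the linear p-value and q-value in mm9. Per the deposited file lists, mm10 files are narrowPeak and mm9 files broadPeak, and the replicated mm10 list derives from the pooled and both replicate lists. The parents of the series-level mm9 list are not named; the text refers to it as the pooled list. No aligner, peak caller or version is named by the labels or files. All mm9 boundaries were multiples of 200 bp, so positions there are known to that step only.

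Intervals were compared with Python 3.11.15, numpy 2.4.6 and pandas 2.3.3, with an overlap of at least 1 bp, and the code was tested on simulated intervals. Promoters were 1 kb either side of a start, from GENCODE M1 transcripts in mm9 and from RefSeq starts (GRCm38.p6) in mm10. Piwil2 had no RefSeq start. Chromosomes 1 to 19, X and Y were used. Copies of 16-mers were counted on both strands of mm9. No test was made, since there is 1 group, and depth is unknown. The rule named all 10 genes and, per other list, up to 4 genes with the strongest shared mm9 region at a start, or the first 2 genes of a list without one. The genes and lists were chosen with earlier results of these data known. Alternatives were other windows, flanks, lists and minimum values.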

Additional observations from a re-analysis of the deposited data

How the results depend on the processing

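Depth is unknown, so a start with no listed peak may be unmarked or under the callers' reach. No paired analysis was possible because the 2 replicates form 1 group. The count of 1 gene with a shared mm9 region at a start became 0 at the gene's 5′ end only, 0 when each replicate had to reach 4-fold, and 4 with the pooled list; leaving out a replicate gave 1 to 3. When 4-fold was required, genes with a shared region in the 20 kb window fell from 6 to 3, other germ cell genes with a shared region at a start from 7 to 1, and those with a replicated mm10 start peak from 13 to 8, as fewer regions enter; over all protein-coding genes these shares fell from 51.6% to 19%, from 5.54% to 1.82% and from 5.89% to 3.51%. The median covered body share, 2.61%, was 3.14% with the pooled list and 2.05% from 4-fold up. The 6 genes with a replicated mm10 start peak numbered 6 with windows of 0.5 and 2.5 kb, 5 from 4-fold up, and 5 or 7 with 1 replicate alone. The background shares were then 3.68%, 11.1% and 3.51% for those windows and that minimum. For single genes, 31 of 40 body shares and 13 of 30 distances to the nearest region moved by no more than the SD of the replicates, but 11 of those 31 were at 0% in both settings. The cause of the other shifts was not tested. Some settings leave out 1 replicate, while the SD comes from the same 2 replicates. Where their distances differed, leaving out the farther replicate had to count as a move. The count of distances therefore does not measure how stable they are.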
